A study of Mus musculus with 25 samples.

Results

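Fgf5, Otx2, Pou3f1, Sox3, Zic2, T, Mixl1, Fgf8, Wnt3 and Mesp1 are 10 mouse genes that embryologists read as signs of 2 successive steps after naive pluripotency. The first 5 belong to the formative and primed epiblast, and the other 5 to the primitive streak and the mesoderm that leaves it. They were taken by gene name from both RNA count tables, from a list drawn up with earlier results of these data known. All 10 were found, among 35731 genes in the embryonic stem cell table and among 24062 genes in the embryo table. Peaks of H3K79me2 and H3K79me3 over the same genes were added.

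The study removed or inhibited Dot1L, the enzyme that methylates histone H3 at lysine K79, and comprised 25 samples. In v6.5, a mouse line of embryonic stem cells (mESCs), RNA was measured in 3 libraries of wild-type (WT) cells and 2 of cells with a Dot1L knockout (KO), and H3K79me2 and H3K79me3 chromatin was sequenced in 2 WT and 2 KO libraries for each mark. In 8-cell embryos of a B6D2F1 by Cast/EiJ cross, RNA was measured in 2 libraries treated with the solvent DMSO (control) and 2 treated with SGC0946, a small-molecule inhibitor of Dot1L. Each embryo library pooled 30 to 35 embryos collected 56 hours after fertilization. The labels do not give the deleted stretch of Dot1l, the number of KO clones, the culture medium or the inhibitor dose. They also do not say whether replicates came from separate cultures or litters, so the p-values measure only the spread between these libraries.

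Naive mESCs resemble the epiblast before implantation and can move through a formative state to a primed state, in which Otx2, Pou3f1 and Fgf5 are switched on and naive factors are switched off. At gastrulation, WNT and Nodal signals then induce the primitive streak, where T and Mixl1 mark nascent mesendoderm and Mesp1 marks the earliest cardiac mesoderm. H3K79 methylation lies over the bodies of transcribed genes, mostly toward their 5′ ends, and Dot1L is the enzyme known to place it.

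The mESC libraries held 26860527 to 33755064 estimated counts and the embryo libraries 24950199 to 32479590 counts. Levels are given as CPM, counts scaled to the library total with the trimmed-mean factor of edgeR. On this scale 3 counts corresponded to 0.0922 to 0.109 in mESCs and to 0.0913 to 0.114 in embryos, which is the limit that a count of 0 allows for counting error. Dot1l itself was at 104.3, 96.9 and 99.2 CPM in the WT and at 81.4 and 71.5 CPM in the KO libraries, and because the deleted stretch is not given this does not check the labels. The peak lists do separate the genotypes, with 64084 to 66834 H3K79me2 peaks in WT and 12 to 16 in KO, and with 7338 to 19800 H3K79me3 peaks in WT and 178 to 328 in KO. The pluripotency markers of the cell type were present, and 11 naive markers summed to 2727 to 2801 CPM in WT and 2209 to 2419 CPM in KO mESCs.

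In mESCs, 9 of the 10 genes had enough counts to be tested, and 4 of them changed in the KO by edgeR's quasi-likelihood test with Benjamini-Hochberg adjustment over all genes. Zic2, Otx2 and Fgf5 fell and T rose. Over all 19532 genes tested, 43.9% were called, 22.3% higher and 21.6% lower, so the count of 4 in 9 lies near the background. Of the 5 primed epiblast genes 3 were lower and 0 higher, with a median log2 fold change of -0.56, and of the 4 streak and mesoderm genes tested 1 was higher and 0 lower, with a median of 0.32. The median over all genes tested was 0.0008, and the difference between both sets of genes was not tested. In bulk RNA, fewer cells that express a gene and less RNA per cell cannot be told apart.

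**Figure D1:**
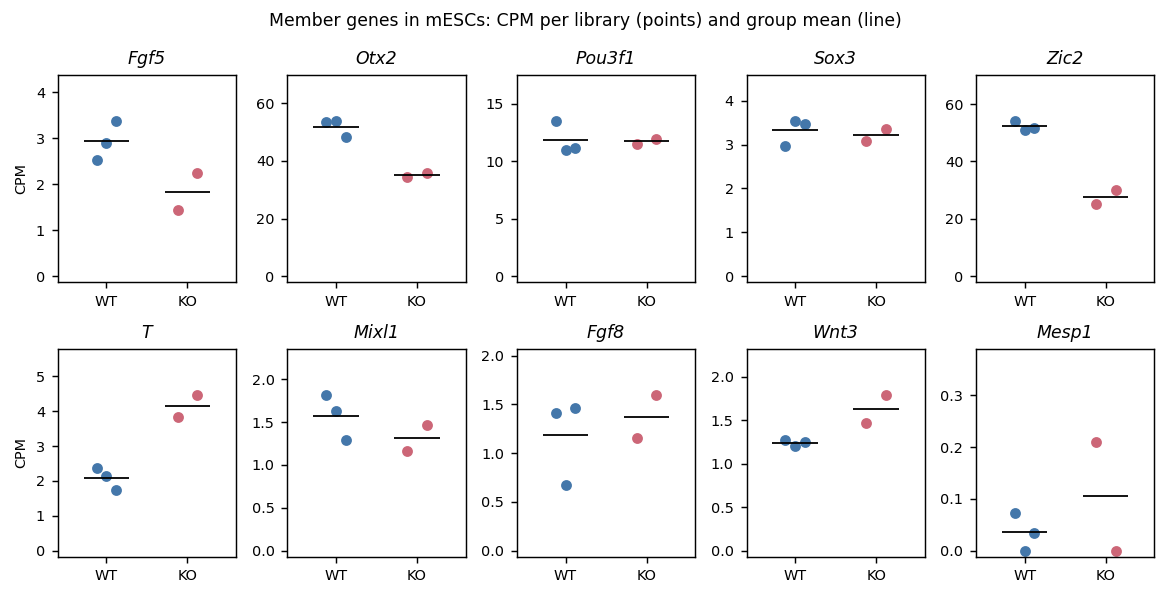
CPM of the 10 genes in each mESC library (points, 3 WT and 2 KO) with the group mean (line), on a separate linear axis from 0 for each gene. The KO points of Zic2 and Otx2 lie below all WT points, and those of T lie above them.

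Zic2, a zinc-finger transcription factor that binds enhancers as cells leave the naive state, had the largest decrease of the 9 genes tested. It was at 54.1, 51.0 and 51.7 CPM in the WT libraries and at 25.1 and 30.2 CPM in the KO libraries. The WT libraries were close together, and both KO libraries lay far below them. The mean was 52.2 ± 1.61 CPM in WT (SD, n = 3) and 27.7 ± 3.57 CPM in KO (SD, n = 2). The log2 fold change was -0.91 (SE 0.07, 95% confidence interval -1.06 to -0.76) with an edgeR adjusted p of 3.4e-07. The gene lies at chr14:122475384-122480328 (GRCm38). Its neighbour Zic5, from the list of other formative and primed genes, fell as well, with means of 85.5 ± 2.58 CPM in WT (SD, n = 3) and 49.9 ± 6.55 CPM in KO (SD, n = 2).

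Otx2, a homeodomain factor that drives the exit from naive pluripotency, was at 53.4, 53.7 and 48.2 CPM in the WT libraries. In the KO libraries it was at 34.5 and 35.7 CPM. Both KO libraries lay below every WT library and differed little from each other. The mean was 51.8 ± 3.10 CPM in WT (SD, n = 3) and 35.1 ± 0.801 CPM in KO (SD, n = 2), and the log2 fold change was -0.56 (SE 0.06, 95% confidence interval -0.69 to -0.44) with an edgeR adjusted p of 6.3e-06. Otx2 is on the minus strand at chr14:48656781-48667644, on the same chromosome as Zic2.

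Fgf5, the FGF ligand most often used to mark primed cells, was low. Its estimated counts were 69.7, 93.9 and 97.0 in WT and 40.8 and 69.0 in KO, and such values that are not whole are estimates. In CPM this was 2.54, 2.89 and 3.38 in WT and 1.44 and 2.24 in KO. The KO libraries lay below the WT libraries, but the higher KO library came close to the lowest WT library. The log2 fold change was -0.66 (SE 0.21, 95% confidence interval -1.13 to -0.20) with an edgeR adjusted p of 0.0237. This call was not stable: DESeq2 gave an adjusted p of 0.0517, and edgeR gave 0.0522 without WT replicate 2, 0.0849 without WT replicate 3 and 0.207 without KO replicate 1, where the log2 fold change was -0.39. Without KO replicate 2 it was -1.03.

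The remaining primed epiblast genes had close values in both genotypes. Pou3f1, the POU-domain factor also called Oct6, was at 13.5, 11.0 and 11.1 CPM in WT and at 11.5 and 12.0 CPM in KO. The KO libraries fell inside the WT range, and the log2 fold change was -0.01 (95% confidence interval -0.23 to 0.20) with an edgeR adjusted p of 0.932. The interval thus excludes a decrease as large as the -0.56 of Otx2. Sox3, a SOX factor of epiblast and neural progenitors that lies on the X chromosome at chrX:60891366-60893430, was at 2.97, 3.54 and 3.48 CPM in WT and at 3.09 and 3.35 CPM in KO. Its groups overlapped, with a log2 fold change of -0.05 (95% confidence interval -0.38 to 0.28) and an edgeR adjusted p of 0.822. Other genes on that chromosome were mostly lower in the KO: among 597 X-linked genes that averaged 1 CPM or more the median log2 fold change was -0.66 and 88.4% were below 0, against a median of 0.01 for autosomal genes. What part this has in the Sox3 value was not tested.

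T, also called Brachyury, is the T-box transcription factor of the primitive streak and the founding member of its family, and it was the 1 gene of the 9 tested that rose. The 250 bases before its start site, at chr17:8434173-8434422 on the plus strand, are printed here from RefSeq (GRCm38.p6). Those of Fgf5 (chr5:98253934-98254183, plus strand) and Mesp1 (chr7:79793591-79793840, minus strand) are printed beside them. T rose, Fgf5 fell by a call that was not stable, and Mesp1 had too few counts to be tested. Each window runs 5′ to 3′ toward the start site, and capitals mark every match on either strand to the motifs searched.
T: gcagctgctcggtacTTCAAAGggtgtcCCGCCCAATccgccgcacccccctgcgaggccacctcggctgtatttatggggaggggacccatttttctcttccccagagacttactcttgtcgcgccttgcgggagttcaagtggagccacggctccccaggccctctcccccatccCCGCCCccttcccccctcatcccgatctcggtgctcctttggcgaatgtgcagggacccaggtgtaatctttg
Fgf5: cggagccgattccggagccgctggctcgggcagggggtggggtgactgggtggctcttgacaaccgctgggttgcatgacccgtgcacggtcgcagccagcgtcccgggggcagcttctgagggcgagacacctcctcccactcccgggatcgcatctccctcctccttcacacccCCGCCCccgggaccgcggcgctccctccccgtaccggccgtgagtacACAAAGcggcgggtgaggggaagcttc
Mesp1: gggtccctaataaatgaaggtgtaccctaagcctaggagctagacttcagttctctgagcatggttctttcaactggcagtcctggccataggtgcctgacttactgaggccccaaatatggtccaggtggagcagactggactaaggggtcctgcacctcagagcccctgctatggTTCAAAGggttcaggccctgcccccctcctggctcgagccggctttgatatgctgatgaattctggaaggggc

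7 motifs were searched on both strands of the 250-base windows: TATAAA as the TATA box, CCAAT as the box of that name, ATGCAAAT as the octamer, AGGTGTGA as a T-box site, CTTTGAA as a TCF/LEF site, ACAAAG as a SOX site and GGGCGG as a GC box. The TCF/LEF letters, bound by the factors at the end of the WNT pathway, occurred in the windows of T and Mesp1, read on the minus strand, and in 4.46% of 32851 windows of all genes. In T they lie 235 to 229 bases before the start site. T also held the CCAAT letters (33.8% of all windows), overlapping 1 of its 2 GC boxes (32.7% of all windows). Fgf5 held a SOX match 27 to 22 bases before its start (16.5% of all windows) and 1 GC box. The Fgf5 window was 70.8% G and C with 24 CpG dinucleotides and the T window 62.8% with 14, against medians of 52.4% and 6, and the Mesp1 window was at 55.2% with 2. RefSeq windows were matched for 5 of the 10 genes (Fgf5, Otx2, T, Wnt3 and Mesp1), and a match of letters is a description and not a binding site.

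The WT libraries held 65, 70 and 50 reads of T and the KO libraries 109 and 137. In CPM these were 2.36, 2.15 and 1.74 in WT and 3.83 and 4.45 in KO. Both KO libraries lay well above every WT library. The mean was 2.08 ± 0.313 CPM in WT (SD, n = 3) and 4.14 ± 0.442 CPM in KO (SD, n = 2), and the log2 fold change was 0.99 (SE 0.17, 95% confidence interval 0.62 to 1.36) with an edgeR adjusted p of 4.6e-04.  RefSeq places another gene, LOC115486424, across the T start site, and as the strand used in counting is not stated, reads from both genes cannot be told apart there.

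The other streak and mesoderm genes did not pass the test. Wnt3, the ligand required to form the streak, was at 1.27, 1.20 and 1.25 CPM in WT and at 1.47 and 1.79 CPM in KO. Its groups did not overlap, and the log2 fold change was 0.40 (95% confidence interval -0.06 to 0.86) with an edgeR adjusted p of 0.154. Wnt3 overlaps Wnt9b on the genome, so its reads carry the same doubt as those of T.

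Fgf8, the FGF ligand needed for cells to leave the streak, was at 1.41, 0.676 and 1.46 CPM in WT and at 1.16 and 1.59 CPM in KO. WT replicate 2 was lower than the rest and the groups overlapped. The log2 fold change was 0.24 (95% confidence interval -0.44 to 0.92) with an edgeR adjusted p of 0.571. Mixl1, a homeobox gene of mesendoderm, was at 1.81, 1.63 and 1.29 CPM in WT and at 1.16 and 1.46 CPM in KO. These groups overlapped too, with a log2 fold change of -0.26 (95% confidence interval -0.77 to 0.25) and an edgeR adjusted p of 0.4. The groups did not overlap for 5 of the 9 genes, Fgf5, Otx2, Zic2, T and Wnt3, which compares with 62.5% of all genes tested (31.8% higher and 30.7% lower in KO). Mesp1, the bHLH factor of cardiac mesoderm, gave 2, 0 and 1 counts across WT libraries and 6 and 0 across KO libraries. Only KO replicate 1 was above 3 counts, and the gene was left untested.

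**Figure D2:**
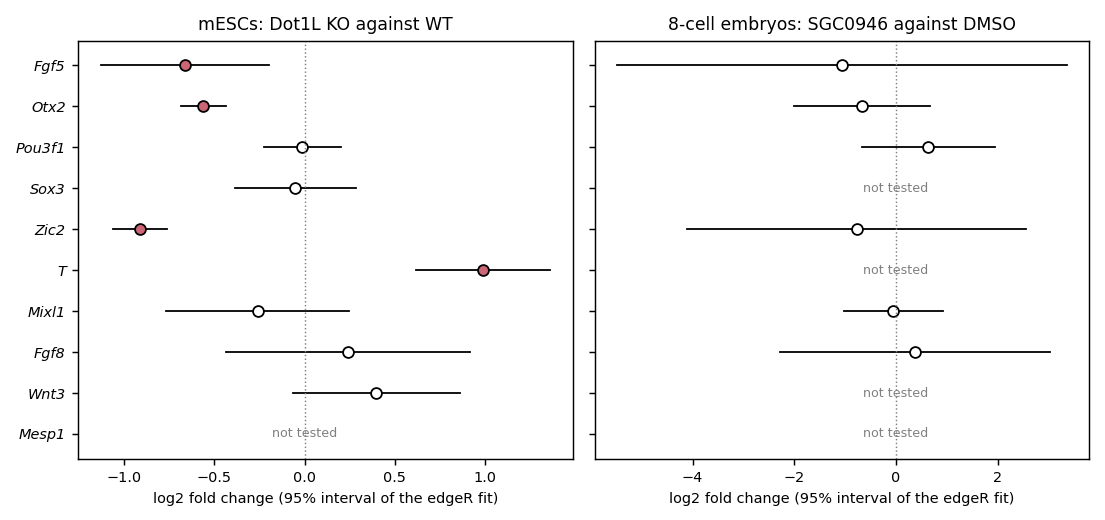
Log2 fold change (points) with 95% confidence interval (lines) of each gene, for KO against WT mESCs and for SGC0946 against DMSO embryos, from edgeR, on a separate axis for each panel. Filled points passed the test. In mESCs the intervals of Fgf5, Otx2, Zic2 and T exclude 0, and in embryos every interval includes 0.

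Genes of the same steps that were listed beside the 10 moved in both directions in the KO mESCs. Of 17 other formative and primed epiblast genes, all tested, 8 rose and 7 fell, with a median log2 fold change of 0.08. Over all genes tested, 22.3% rose and 21.6% fell. Cdh2, which encodes N-cadherin, rose from 10.9 ± 1.01 to 18.9 ± 0.515 CPM (SD, n = 3 and n = 2), and Sfrp2, a secreted WNT antagonist, and Tcf15, a bHLH factor of primed cells, both rose by 0.68 on the log2 scale. Foxd3, a forkhead factor that acts in the passage out of the naive state, fell from 6.39 ± 0.109 to 1.48 ± 0.301 CPM (SD, n = 3 and n = 2; log2 fold change -2.10). Grhl2, a factor of epithelial enhancers, fell by 1.09 on the log2 scale and Zic5 by 0.78. The list thus held about as many genes that rose as genes that fell.

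Of 20 other primitive streak and mesoderm genes, 18 were tested, of which 7 rose and 2 fell, with a median log2 fold change of 0.45. The shares of all genes tested were 22.3% higher and 21.6% lower. Cdx1, a caudal-type homeobox gene, rose from 0.992 ± 0.168 to 5.88 ± 0.227 CPM (SD, n = 3 and n = 2; log2 fold change 2.57), and Hand1, a bHLH factor of lateral mesoderm and trophoblast, rose by 1.25 on the log2 scale. Snai1, a repressor of E-cadherin, rose by 0.83, but without KO replicate 1 its change was 0.42 with an edgeR adjusted p of 0.229. Fgf17 fell from 18.1 ± 0.323 to 7.41 ± 0.788 CPM (SD, n = 3 and n = 2; log2 fold change -1.29). Tbx3, which is also a naive marker, fell by 0.18, and that call was lost under several settings, with adjusted p-values up to 0.118. Eomes and Hand1 of this list are also trophectoderm markers.

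In the pathways of the ligands, FGF signalling split likewise, with 8 of 17 genes higher, 5 lower and a median log2 fold change of 0.02. For this list and the WNT list, the shares of all genes tested were 22.3% higher and 21.6% lower. The receptors Fgfr4 and Fgfr3 rose by 1.34 and 1.27 on the log2 scale and the feedback inhibitor Spry4 by 1.40, from 88.0 ± 6.41 to 231.7 ± 20.2 CPM (SD, n = 3 and n = 2). Fgfr2 fell from 20.6 ± 1.02 to 5.57 ± 0.578 CPM (SD, n = 3 and n = 2; log2 fold change -1.88), Fgf4, the main FGF ligand of mESCs, by 0.65 and Fgfr1 by 0.28. With upper-quartile scaling 3 rather than 5 of these genes were called lower. Of 20 genes of canonical WNT signalling 8 rose and 5 fell, with a median of 0.08. Rnf43, Nkd1 and Axin2, which are WNT target genes that damp the pathway, rose by 1.80, 0.77 and 0.65 on the log2 scale. Tcf7l1, the TCF factor that represses WNT targets in mESCs, fell from 64.0 ± 5.11 to 33.8 ± 4.00 CPM (SD, n = 3 and n = 2; log2 fold change -0.92), and Tcf7l2 and Znrf3 fell by 0.30 and 0.27.

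Markers of other cell types and states moved beside these genes. Their counts stand against 22.3% of all genes tested that rose and 21.6% that fell. Of 11 naive markers 8 fell and 1 rose, and of 7 primitive endoderm markers tested 5 rose and 0 fell, their sum going from between 74.9 and 78.4 CPM in WT to between 119.6 and 125.2 CPM in KO. Of 8 fibroblast markers tested, which would reveal feeder cells, 5 rose and 0 fell, and the sum went from between 1265 and 1438 CPM to between 1480 and 1710 CPM, most of it from Fn1, which rose from 1112 to 1296 CPM. The largest change was that of Col1a1, which rose from 52.2 ± 9.62 to 80.2 ± 12.7 CPM (SD, n = 3 and n = 2, log2 fold change 0.62, edgeR adjusted p 0.00117). Postn, Fbln2 and Thy1 rose by 0.42, 0.30 and 0.14 on the log2 scale, though the groups of Fbln2 overlapped. The Postn call was lost in DESeq2 (adjusted p 0.052) and in edgeR without WT replicate 2 (adjusted p 0.0686) or WT replicate 3 (adjusted p 0.0698). Without KO replicate 1 the Postn change was 0.18. The groups of Col1a2, Col3a1 and Dcn overlapped too, and these genes did not pass the test. Lum was at 0.222 CPM in WT and 0.219 CPM in KO. The count of 5 was 2 in DESeq2. Of 6 markers of 2-cell-like cells 4 rose and 0 fell, with sums of 26.6 to 28.1 CPM in WT and 69.2 to 82.7 CPM in KO. Of 8 trophectoderm markers 5 rose and 2 fell, and of 6 neuroectoderm markers tested 1 rose and 3 fell. The part of these cell types in the values of the 10 genes was not tested.

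Over the 10 genes, WT mESCs carried H3K79me2 peaks of both libraries at Otx2, Pou3f1 and Zic2 and H3K79me3 peaks of both libraries at Pou3f1 and Zic2. Among 18566 tested genes with a position, 44.4% had H3K79me2 in both lists and 11.2% had H3K79me3 in both. These 3 of 10 and 2 of 10 are counts of genes with at least 1 base of a peak in the gene body. Both marks in both lists were found at Pou3f1 and Zic2 and at 9.48% of all these genes. The share differed with the level of the RNA. With a WT mean of 10 to 100 CPM, where Otx2, Pou3f1 and Zic2 lie, 70.8% of genes had H3K79me2 and 9.24% had H3K79me3 in both lists. With 1 to 10 CPM, where Fgf5, Sox3, T, Mixl1, Fgf8 and Wnt3 lie, 11.4% and 4.25% did, and 0 of these 6 genes had either mark in both lists. The 4 KO lists held 0 peaks over any of the 10 genes or within 2 kb of one, and the nearest KO peak, at Fgf8, was 648 kb away.

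**Figure D3:**
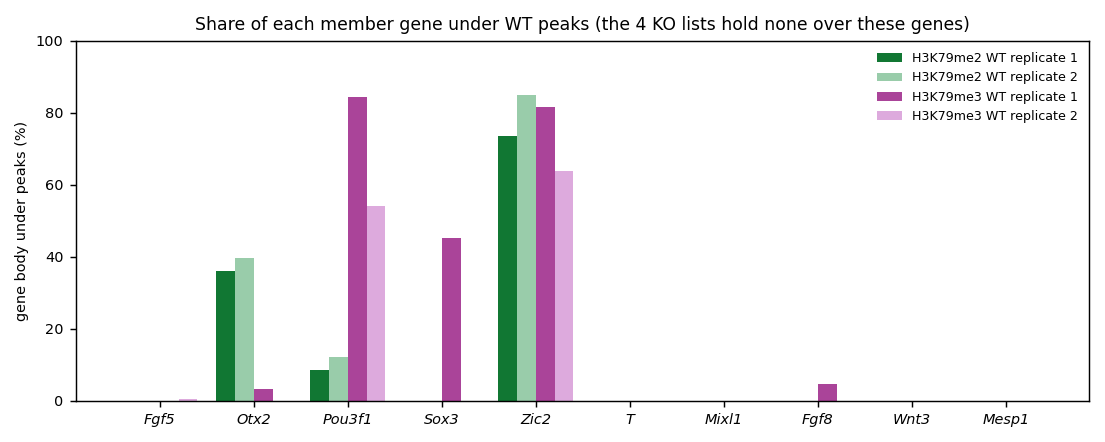
Share of each gene body (percent) under peaks of the 2 WT H3K79me2 lists and the 2 WT H3K79me3 lists, as bars from 0. Zic2 is covered over 63.8% to 84.8% in all 4 lists, Pou3f1 mainly by H3K79me3 and Otx2 mainly by H3K79me2, while T, Mixl1, Wnt3 and Mesp1 have no peak in the gene body.

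Zic2 was the most covered of the 10 genes. H3K79me2 peaks spanned 73.7% and 84.8% of its body in WT replicates 1 and 2, and H3K79me3 peaks spanned 81.6% and 63.8%. The longest peak was an H3K79me3 peak of 3828 bp with an enrichment over background of 7.64 in the authors' peak list and a -log10 q of 18.0. The H3K79me2 enrichment reached 7.71 in replicate 1 and 4.36 in replicate 2. At least 50% of the body was under H3K79me3 in both WT lists at Zic2 and Pou3f1, as at 54 of the 18566 genes (0.291%), a threshold chosen after the values were seen.

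Pou3f1 and Otx2 carried the marks in opposite proportion. At Pou3f1 (chr4:124657646-124660655), H3K79me3 spanned 84.4% of the body in replicate 1, in 1 peak of 2541 bp, and 54.1% in 4 peaks in replicate 2. H3K79me2 spanned 8.57% and 12.2% there, in 1 peak each, and these peaks did not overlap each other, lying 2342 to 2599 bp and 1605 to 1971 bp from the lower coordinate of the gene. At Otx2, H3K79me2 spanned 36.1% in 5 peaks and 39.7% in 7 peaks. These are shares of the whole RefSeq span, which also holds inner start sites, among them chr14:48662734. H3K79me3 spanned 3.25% of Otx2 in replicate 1 and had no peak there in replicate 2. Peak lists were called library by library, so a share of 0 means only that no peak passed the caller's threshold.

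**Figure D4:**
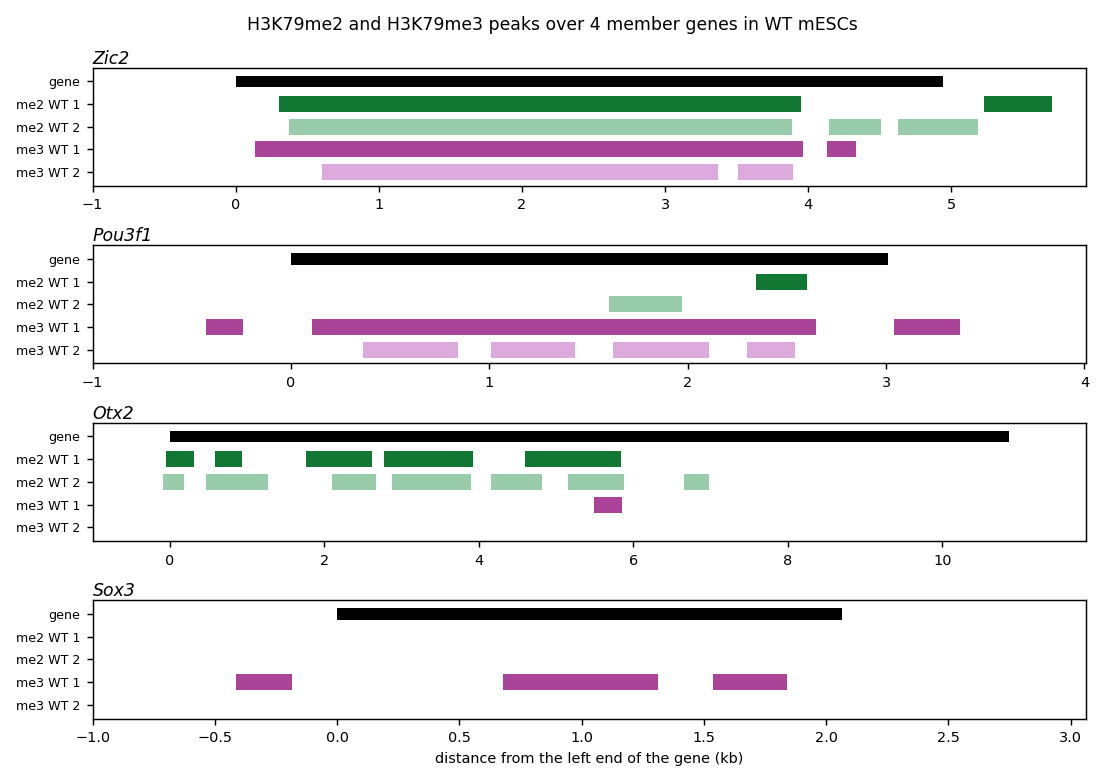
Peaks (bars) of the 4 WT lists along Zic2, Pou3f1, Otx2 and Sox3, with the gene body in black and the distance in kb from its lower coordinate, on a separate scale for each gene. Zic2 is filled by both marks and Pou3f1 by H3K79me3, Otx2, on the minus strand, carries broken H3K79me2 peaks on the left of the drawn gene, and Sox3 has H3K79me3 peaks in replicate 1 only.

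H3K79me3 at the remaining genes was found in 1 list only. Sox3 had 2 peaks over 45.2% of its body in replicate 1, with no H3K79me2 peak nearer than 489 kb. Fgf8 had 1 peak over 4.73% of its body in replicate 1. Fgf5 had 1 peak of 188 bp across its start site in replicate 2, at chr5:98254096-98254283 and with an enrichment of 4.34, which also overlaps the promoter window printed above. T had none in its body but a peak of 214 bp that ended 401 bp before the gene in replicate 1, over LOC115486424. Mixl1, Wnt3 and Mesp1 had none within 2 kb. In single lists H3K79me3 lay over 5 of the 10 genes in replicate 1 and 3 in replicate 2, where the shares of all genes were 26.8% and 11.6%. The nearest WT H3K79me2 peaks of genes without one were 5.17 kb away at Fgf8, 29.3 kb at Mixl1, 51.6 kb at Mesp1, 77.0 kb at Wnt3, 107 kb at T and 1140 kb at Fgf5.

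Peaks and RNA change can be set side by side. Of the 3 genes with H3K79me2 in both WT lists, Zic2 and Otx2 fell and Pou3f1 had a log2 fold change of -0.01. The H3K79me2 peaks of Pou3f1 were weak, with a -log10 q of 4.62 and 3.51. Pou3f1 dropped out at a -log10 q of at least 5 or with at least 500 bp covered, which left 2 genes. Of the 6 tested genes without H3K79me2 in both lists, Fgf5 fell and T rose. Among all genes with H3K79me2 in both lists 33.7% fell and 17.8% rose, and among genes without it 12.3% fell and 27.2% rose. With so few members this comparison describes them and is no test.

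In 8-cell embryos, 6 of the 10 genes could be tested, and 0 were called. The same was so for all 14351 genes tested, of which 0.0% were called by edgeR at an adjusted p under 0.05, 8.15% had an unadjusted p under 0.05, and DESeq2 and limma-voom called 126 and 55. None of the 6 genes had an unadjusted p under 0.05, and DESeq2 gave none of them an adjusted p. The spread between embryo libraries was large, with a biological coefficient of variation of 0.442 against 0.0467 in mESCs, and the intervals of the fold changes are wide.

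Otx2 was at 4.57 and 4.45 CPM in the control embryos and at 3.05 and 2.62 CPM in the inhibitor-treated embryos. The groups did not overlap, as was so for 39.2% of all genes tested. The mean was 4.51 ± 0.0849 CPM (SD, n = 2) in controls and 2.83 ± 0.307 CPM (SD, n = 2) with inhibitor, and the log2 fold change was -0.67 (95% confidence interval -2.00 to 0.66) with an edgeR adjusted p of 0.857. Fgf5 had 15 and 10 counts in controls and 6 and 7 with inhibitor. These did not overlap either, with a log2 fold change of -1.06 (95% confidence interval -5.48 to 3.36) and an edgeR adjusted p of 0.961.

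Pou3f1 was at 3.76 and 3.02 CPM in controls and at 7.51 and 3.04 CPM with inhibitor, where replicate 1 stood alone. Its log2 fold change was 0.64 (95% confidence interval -0.68 to 1.95), and without that library it was -0.15. Zic2 was at 1.47 and 0.490 CPM in controls and at 0.572 and 0.578 CPM with inhibitor, so the groups overlapped and control replicate 1 carried the difference. Its log2 fold change was -0.77 (95% confidence interval -4.10 to 2.56), and without that library it was 0.23. Sox3 had 13 and 9 counts in controls and 9 and 0 with inhibitor and was not tested.

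**Figure D5:**
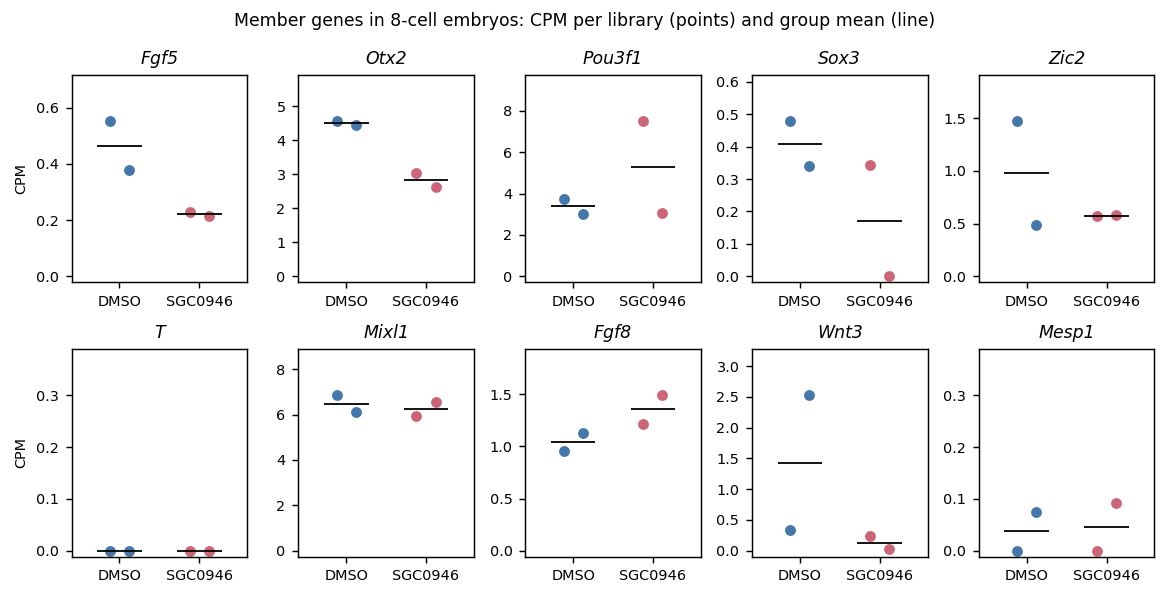
CPM of the 10 genes in each 8-cell embryo library (points, 2 DMSO and 2 SGC0946) with the group mean (line), on a separate linear axis from 0 for each gene. The groups of Fgf5, Otx2, Fgf8 and Wnt3 do not overlap, and T is at 0 in all 4 libraries.

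Of the streak and mesoderm genes, Mixl1 was at 6.85 and 6.11 CPM in controls and at 5.95 and 6.54 CPM with inhibitor. Its groups overlapped, with a log2 fold change of -0.05 (95% confidence interval -1.03 to 0.92). Fgf8 was at 0.958 and 1.13 CPM in controls and at 1.22 and 1.49 CPM with inhibitor, which did not overlap, and the log2 fold change was 0.38 (95% confidence interval -2.27 to 3.02) with an edgeR adjusted p of 0.979. Wnt3 was uneven, with 9 and 67 counts in controls and 6 and 1 with inhibitor, and was not tested. Mesp1 had 0 and 2 counts in controls and 0 and 3 with inhibitor. T had 0 counts in each of the 4 embryo libraries, which allows up to 0.0913 to 0.114 CPM, while the same gene was at 1.74 to 4.45 CPM in the mESC libraries.

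The lists fixed beside the 10 genes also had 0 calls in embryos by edgeR at its main settings. At an unadjusted p under 0.05 there were 2 of 15 other formative and primed genes, 2 of 14 other streak and mesoderm genes, 5 of 17 FGF genes and 2 of 18 WNT genes, where the share of all genes was 8.15%. Of 11 naive markers 5 were below it, and their sum was 3968 to 4438 CPM in controls and 3116 to 3642 CPM with inhibitor. Tfcp2l1 and Esrrb, naive transcription factors, had log2 fold changes of -0.89 and -0.64, each with an edgeR adjusted p of 0.203, and DESeq2 called both, with adjusted p-values of 7.5e-06 and 0.00111, as did limma-voom, with 8.8e-04 and 0.0216. The part of the naive markers in the values of the 10 genes was not tested. Tdgf1, which encodes the Nodal co-receptor Cripto, was at 52.6 ± 7.34 CPM in controls and 26.7 ± 4.70 CPM with inhibitor (SD, n = 2 each; log2 fold change -0.97, edgeR adjusted p 0.289, DESeq2 adjusted p 0.016). Utf1 and Dnmt3a had log2 fold changes of -0.47 and -0.28. In the mesoderm list Tbx3, Tbx6 and Kdr were at -0.39, 1.35 and 1.52, in the FGF list Fgf4, Fgfr3 and Fgfr2 were at -0.70, 0.79 and -0.43, and in the WNT list Tcf7, Axin2 and Porcn were at 1.51, 0.87 and -0.53. Without the filter, and also with the replicate numbers as a block, edgeR called Tfcp2l1, Esrrb and Tdgf1. With the block it called Tcf7 too (edgeR adjusted p 0.0389). Of 8 cumulus cell markers, which would reveal carried-over maternal cells, Fshr, Inha, Inhba and Ptx3 were at 0 in all 4 libraries, while Amhr2 was at 42.4 CPM in controls and 37.4 CPM with inhibitor and Star at 3.48 and 4.49 CPM. The cumulus list summed to 43.5 to 49.2 CPM in controls and 40.8 to 43.3 CPM with inhibitor. Of 9 fibroblast markers Col3a1, Dcn and Lum were at 0, while Fn1 was at 22.8 and 24.1 CPM and Col1a1 at 1.81 and 1.02 CPM. The part of these cell types in the embryo values was not tested.

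The mESC and embryo comparisons used no common library, and they were normalised and counted apart, so their values are given side by side only. Fgf5, Otx2 and Zic2 fell in KO mESCs with log2 fold changes of -0.66, -0.56 and -0.91. In embryos these genes were at -1.06, -0.67 and -0.77, where none passed the test and Zic2 turned positive without control replicate 1. The embryo intervals were wide, that of Fgf5 running from -5.48 to 3.36. Of the other genes tested in both, Pou3f1 was at -0.01 in mESCs and 0.64 in embryos. Mixl1 was at -0.26 and -0.05, and Fgf8 at 0.24 and 0.38. T, which rose in KO mESCs, was not detected in embryos. The peaks over these genes were measured in mESCs alone.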

How the data were processed

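RNA was measured in 5 mESC and 4 embryo libraries and H3K79me2 and H3K79me3 chromatin in mESC libraries with inputs. For mESCs the authors deposited estimated counts, which were not all whole and were rounded before testing. For embryos the authors deposited whole counts per gene. Per the submitters' processing notes, kallisto, STAR, HTSeq, Bowtie2 and MACS2 were used with mm10, without a role or version for each. In the peak lists the authors deposited a score, a fold enrichment over background and −log10 q-values. The strand used in counting, transcript models and caller settings are not given in the sources used here. No column was without a sample (0).

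Rows were found by gene name. edgeR 4.0.16 with TMM normalisation, filterByExpr and glmQLFTest was fitted on each table (WT against KO, DMSO against inhibitor), with p-values adjusted by Benjamini-Hochberg over all genes and called under 0.05. The edgeR fit was run on simulated data, where recovery was checked for the mESC table only, so this is no check of the embryo fit. DESeq2 1.42.0 and limma 3.58.1 (limma-voom), other scalings, filters, a replicate block, peak thresholds and leaving out each library were tried. Peaks were set over gene bodies of RefSeq GRCm38.p6 with at least 1 base of overlap. CPM was computed with the TMM library sizes. No transcript lengths were used, so the CPM bands that group genes beside the peak counts also reflect transcript length, and levels are not compared between single genes.

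The 10 genes were always named. From each other list, at most 3 genes per direction were named, those called with the largest change, at least 1 CPM and groups that do not overlap. In embryos the 3 with the lowest p were named. The genes and lists were chosen with earlier results of these data known, and the check of coverage of at least 50% was chosen after seeing the values.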

Additional observations from a re-analysis of the deposited data

How the results depend on the processing

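In mESCs, Otx2, Zic2 and T kept their direction and their call under all 13 alternatives, and 3 of the 4 calls stayed in DESeq2 and without WT replicate 2, WT replicate 3 or KO replicate 1, where Fgf5 was lost. The number of genes called ranged from 6765 to 8945. Upper-quartile scaling shifted log2 fold changes by 0.07 at the median and called 5503 genes higher and 3168 lower, against 4351 and 4221. Under it Pou3f1 was at 0.054 and Sox3 at 0.016. With 1 library left out, Pou3f1 ranged from -0.067 to 0.087, Sox3 from -0.12 to 0.0037 and Fgf8 from -0.058 to 0.45. Leaving out a KO library or any embryo library left 1 library in that arm, which was assumed to vary like the others. In embryos DESeq2 called 126 genes, limma-voom 55, the unfiltered fit 111 and the fits without 1 library 4 to 365, the last without inhibitor replicate 2. The cause was not tested. There Pou3f1 ranged from -0.15 to 1.15, Zic2 from -1.35 to 0.23, Mixl1 from -0.13 to 0.031, Eomes from -1.54 to 0.11, Cdx2 from -1.48 to 0.0125, Tfap2c from -0.46 to 0.092, Map2 from -0.31 to 2.91 and Star from -0.19 to 0.84. The count of genes with H3K79me3 peaks in every list used was 5 without WT replicate 2 and 3 without WT replicate 1. The count with H3K79me2 peaks in both WT lists was 2 at a -log10 q of at least 5 or with at least 500 bp covered, where Pou3f1 was lost.

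The replicate block called 8160 genes and 4 members in mESCs and 171 genes and 0 members in embryos. Deviations of same-numbered libraries from their group mean correlated at -0.04 and -0.09 in mESCs and at 0.07 in embryos. In embryos both pairs give the same value by construction. With so few libraries these values cannot decide whether the numbers are pairs, and the main fit did not take them as pairs. Low counts limit Fgf5, Fgf8, Wnt3, Mixl1 and T in mESCs and most of the 10 genes in embryos.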

Other observations

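The 54 genes with at least 50% of the gene body under H3K79me3 peaks in both WT lists had a median span of 2.65 kb. Among gene bodies under 10 kb there were 49 of 6304 (0.777%). Zic2 and Pou3f1 apart, they included the pluripotency genes Pou5f1 and Sox2, the FGF ligand Fgf4 and the FGF feedback inhibitor Spry2. All 54 had H3K79me2 peaks in both WT lists as well. In the KO mESCs 29 of the 54 fell and 9 rose by edgeR, with a median log2 fold change of -0.14. Among all genes with H3K79me2 in both lists 33.7% fell and 17.8% rose, and among all genes tested 21.6% fell and 22.3% rose.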
